A study of Mus musculus with 24 samples.

Results

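The Epcam-positive fraction of mouse lung organoids that had been exposed to cigarette smoke extract and then treated with tanimilast and formoterol was compared with the same fraction of cultures that had neither. The comparison asks how far treated cultures remained from never exposed ones, across all genes. It used 6 of the 24 libraries of the series, chosen by their labels: 3 libraries of the group EpiCSETF and 3 of the group EpiVeh, with mice 1, 2 and 3 giving a library to each group. Organoids are small epithelial structures, here grown in Matrigel from lung epithelial cells freshly taken from wild-type mice together with CCL206, a fibroblast line of mouse lung. EpiCSETF cultures had 5% cigarette smoke extract from day 0 to day 14. They were then dissociated, equal numbers of epithelial cells were plated again with fresh CCL206 cells, and 100 nM tanimilast with 100 nM formoterol was given up to harvest on day 28. EpiVeh cultures went through the same plating, dissociation and harvest with vehicle in both windows. The other Epcam-positive groups, EpiCSE (smoke extract, then vehicle) and EpiTF (vehicle, then both drugs), and the Epcam-negative groups FibCSETF and FibVeh of the same cultures serve as side values. The fibroblasts of every culture come from a single line, and the sources used here give neither the strain, age and sex of the mice nor the way the fractions were separated. The p-values measure the spread between cultures of 3 animals.

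Tanimilast inhibits phosphodiesterase 4, a family of enzymes that degrade cyclic AMP, and formoterol is a bronchodilator that raises cyclic AMP. Cyclic AMP activates protein kinase A, which phosphorylates the transcription factor CREB, and CREB binds the cyclic AMP response element in promoters of genes such as Fos and the Nr4a nuclear receptors. Cigarette smoke holds reactive electrophiles, which stabilise the transcription factor NRF2 and its antioxidant targets, and polycyclic hydrocarbons, which activate the aryl hydrocarbon receptor. In the lung epithelium these routes meet in basal, club, goblet, ciliated and alveolar cells.

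The 6 libraries held between 40930471 and 46020443 counts, of which mitochondrial genes took 4.25 to 5.40%, so that 1 CPM (the level used here, counts scaled to the library size) stood for at least 40.9 counts. Epcam, the surface protein that defines the fraction, was at 895 to 1680 CPM in EpiVeh and 899.5 to 1298 CPM in EpiCSETF, with overlap between the groups. RNA of fibroblast genes was present in both groups. The summed level of the 14 genes of a fibroblast identity list was 244 to 584 CPM in EpiVeh and 212 to 478 CPM in EpiCSETF, against 2301 to 2650 CPM in FibVeh. Of the 9 tested members of that list, 0 had a positive log2 difference, against 8604 of all 18038 features. The mice differed, with medians over these members of -0.43, -0.23 and 0.37 in mice 1, 2 and 3.

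Few genes separated the treated from the never exposed epithelium. Of 18038 features tested, 3 were called, which is 0.0166%, at an adjusted p under 0.05 in edgeR's quasi-likelihood test with Benjamini-Hochberg adjustment: Pyy rose, and Tnnt2 and Lgr6 fell. With the mouse as a block in the fit, 6 were called (0.0333%), with Cyp2b10, Tspan4 and C130026I21Rik added as rises. Below that threshold, 608 features (3.37%) had an unadjusted p under 0.05, of which 351 (1.95%) were higher and 257 (1.42%) lower in EpiCSETF. In 1329 features (7.37%) the 3 libraries of a group lay all above or all below those of the other. Neither count was set against what libraries without any difference would give, so both are descriptions, as is a lack of overlap in single genes below. The DESeq2 test called 34 features (0.188%), 24 higher and 10 lower.

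**Figure D1:**
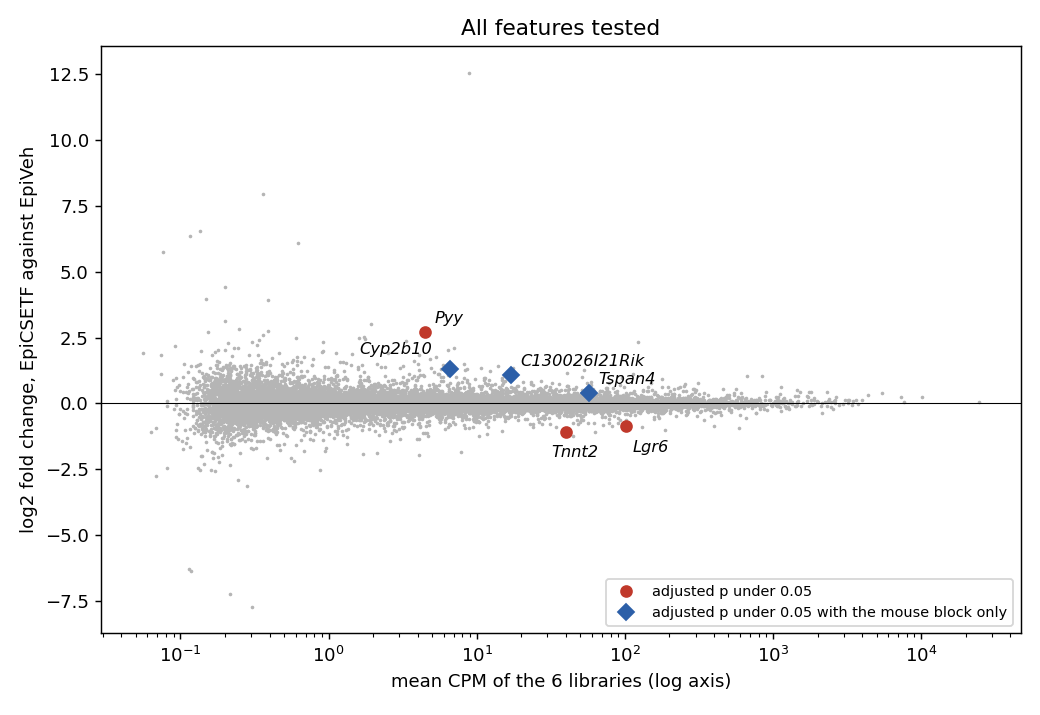
Log2 fold change of EpiCSETF against EpiVeh (vertical axis) for the 18038 features tested, against their mean CPM in the 6 libraries (horizontal log axis). The 3 features called are marked by red circles and the 3 called with the mouse block alone by blue diamonds, and Pyy has the largest difference among them.

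The distances between the groups overlapped with those between animals. The root mean square log2 CPM difference over the features tested, between EpiCSETF and EpiVeh of the same mouse, was 0.523 in mouse 1, 0.518 in mouse 2 and 0.590 in mouse 3. Between 2 mice of the same group it was 0.538 to 0.711 in EpiVeh and 0.554 to 0.683 in EpiCSETF, so the ranges within an animal and between animals overlap. The smoke extract alone gave 0.513, 0.569 and 0.640 from EpiVeh in mice 1, 2 and 3, and the drugs alone gave 0.484, 0.577 and 0.509, from the same EpiVeh libraries. In mice 1 and 3 the EpiCSETF library was closer to EpiCSE (0.489 and 0.511) than to EpiVeh, and in mouse 2 it was farther (0.590).

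**Figure D2:**
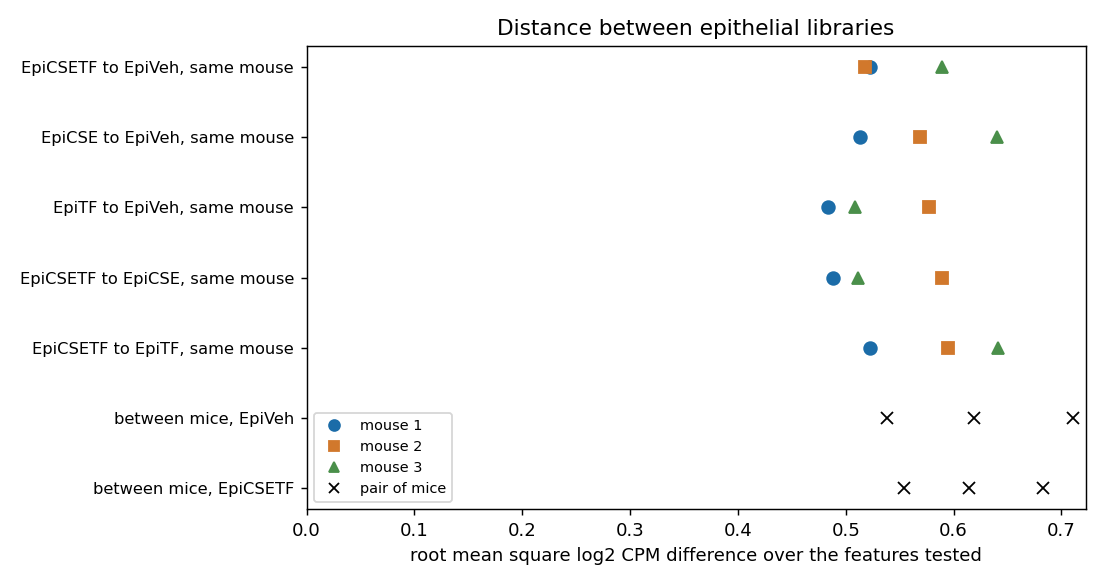
Root mean square log2 CPM difference (horizontal axis, from 0) between pairs of epithelial libraries: coloured marks are pairs from 1 mouse and crosses are pairs of mice within a group. The 3 same-mouse distances of EpiCSETF from EpiVeh, 0.518 to 0.590, lie inside the spread of the other pairs.

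Pyy, which encodes peptide YY, a hormone of enteroendocrine cells, had the smallest p of all features. It was at 1.05, 1.16 and 1.36 CPM in EpiVeh and 6.02, 7.67 and 9.74 CPM in EpiCSETF of mice 1, 2 and 3. All 3 treated libraries were above all 3 vehicle libraries, at a low level in each. The rise was 6.55-fold, a log2 fold change of 2.71 ± 0.27 (SE; n = 3 per group; edgeR, Benjamini-Hochberg adjusted p = 0.0143, and 0.00277 with the mouse block). In EpiTF the gene was at 6.29, 5.45 and 5.55 CPM and in EpiCSE at 1.43, 1.55 and 2.67 CPM, so both drug-treated groups were above both groups without drugs. Leaving out a library ended the call in 4 of 6 cases, with edgeR adjusted p between 0.0197 and 0.154.

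Pyy lies on the minus strand of chromosome 11. Its promoter is shown because it is the gene with the largest called difference. In the windows below, from the RefSeq promoter table of build GRCm38.p6, the 250 bases before the start are printed 5′ to 3′ on the strand of the gene. Capitals mark TGACGT, a part of the cyclic AMP response element TGACGTCA, on either strand. A run of capitals longer than that is a pair of overlapping matches.
Pyy, chr11:102107833-102108082, minus strand: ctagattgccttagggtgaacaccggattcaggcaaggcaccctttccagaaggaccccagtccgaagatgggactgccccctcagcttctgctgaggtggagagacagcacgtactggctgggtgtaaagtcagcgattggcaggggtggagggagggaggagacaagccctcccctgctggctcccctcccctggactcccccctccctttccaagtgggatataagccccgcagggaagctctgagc

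Neither window of Pyy, from 250 bases before to 50 after each of its RefSeq starts, holds TGACGT or the full element TGACGTCA. That says only that these letters are not in these windows.

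Tnnt2 encodes cardiac troponin T, a part of the thin filament of striated muscle. It was at 48.6, 50.7 and 63.4 CPM in EpiVeh and at 26.4, 25.2 and 24.9 CPM in EpiCSETF. The treated libraries lay close together and below every vehicle library. Its log2 fold change was -1.09 ± 0.14 (SE; edgeR, Benjamini-Hochberg adjusted p = 0.0429, and 0.0485 with the mouse block). EpiCSE was between them, at 28.5, 42.4 and 34.5 CPM, and EpiTF was at 47.0, 44.0 and 46.8 CPM. Tnnt2 was higher in the Epcam-negative fraction, at 153, 159 and 191 CPM in FibVeh and 71.2, 73.4 and 66.0 CPM in FibCSETF. The part of fibroblast RNA in the difference was not tested. In the Epcam-negative fraction itself the log2 difference was -1.25 ± 0.16 (SE).

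Lgr6 encodes a receptor for R-spondins, secreted proteins that raise Wnt signalling, and marks stem cells of the skin and some lung progenitors. It was at 119, 147 and 128 CPM in EpiVeh and at 69.6, 75.0 and 69.4 CPM in EpiCSETF, without overlap. Its log2 fold change was -0.88 ± 0.11 (SE; edgeR, Benjamini-Hochberg adjusted p = 0.0429, and 0.00284 with the mouse block). Smoke extract alone had 92.3, 90.5 and 74.8 CPM and the drugs alone 97.0, 116 and 93.2 CPM, so each single treatment lay between the vehicle and the joint treatment in its mean. Lgr6 was also high in FibVeh, at 158, 190 and 165 CPM, against 106, 101 and 76.9 CPM in FibCSETF. With only the 6 libraries and the block, Lgr6 was called (edgeR adjusted p = 0.0192) and Tnnt2 was not (0.0625). Both Tnnt2 and Lgr6 lost the call whichever of the 6 libraries was left out, with edgeR adjusted p between 0.0892 and 0.348. Lgr6 was the 1 called gene of the 24 tested in a Wnt list, whose median log2 difference was -0.03.

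Cyp2b10, a cytochrome P450 induced by xenobiotics, was at 3.85, 4.48 and 3.01 CPM in EpiVeh and at 9.11, 10.5 and 8.64 CPM in EpiCSETF. It did not overlap between the groups, and its log2 fold change of 1.32 ± 0.20 (SE) had an edgeR Benjamini-Hochberg adjusted p of 0.168, and of 0.0485 with the mouse block. Its adjusted p was 1.85e-07 with DESeq2, 0.0738 in edgeR with only the 6 libraries and the block, and up to 1.00 over the other alternatives. EpiTF was at 7.48, 6.13 and 5.83 CPM and EpiCSE at 4.14, 2.79 and 3.32 CPM. Tspan4, a tetraspanin of the cell membrane, was at 46.5, 58.6 and 43.7 CPM in EpiVeh and 61.1, 73.7 and 59.7 CPM in EpiCSETF. Within each mouse it was higher in the treated library, and its log2 fold change was 0.39 ± 0.14 (SE; edgeR adjusted p = 1.00, and 0.0485 with the mouse block). C130026I21Rik, which falls outside the rule for named genes by its symbol, was at 15.1, 8.28 and 9.79 CPM in EpiVeh and 26.7, 17.4 and 25.4 CPM in EpiCSETF. Its log2 fold change was 1.07 ± 0.31 (SE; edgeR adjusted p = 1.00, and 0.0485 with the mouse block). With only the 6 libraries and the block, Tspan4 and C130026I21Rik were not called (edgeR adjusted p = 0.131 and 0.0738), and with DESeq2 they were not called either (0.847 and 0.171).

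**Figure D3:**
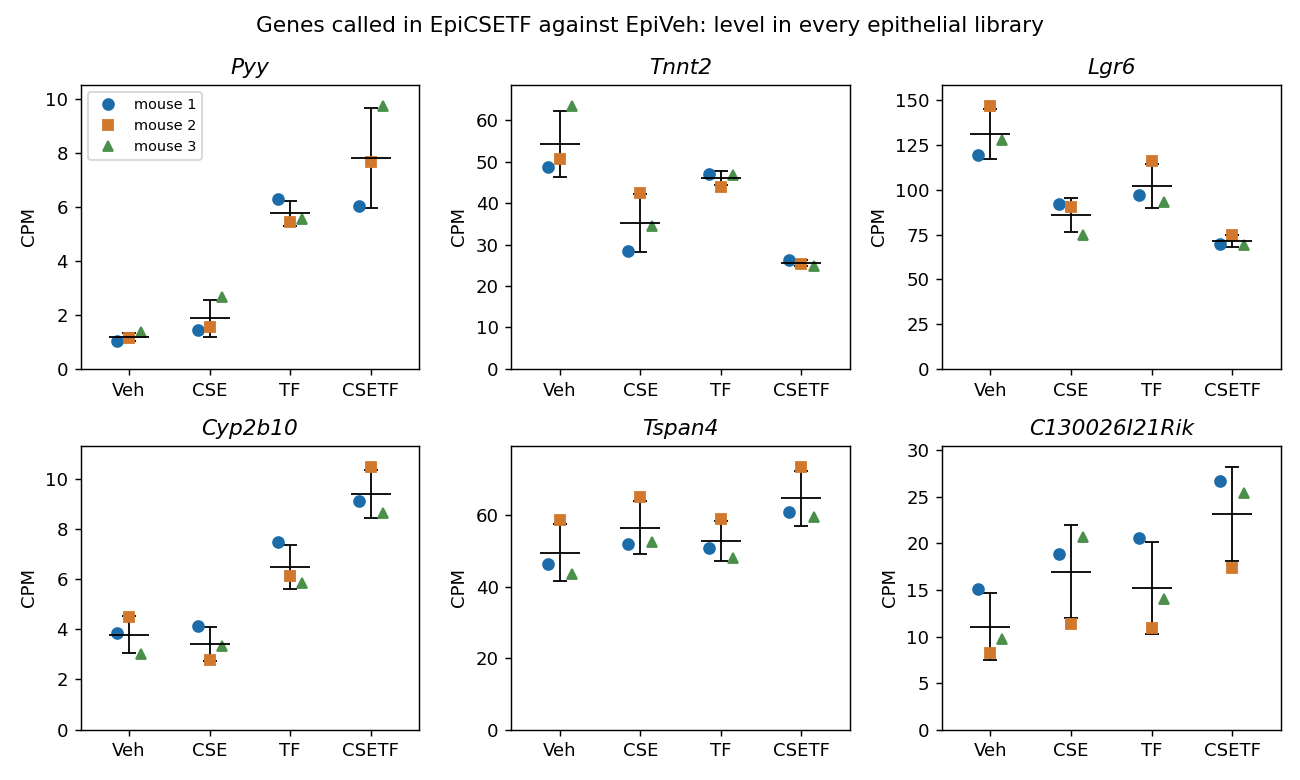
CPM (vertical axes, from 0) of the 6 genes called in the fit with or without the mouse block, in the 12 epithelial libraries; marks are mice, the horizontal bar is the mean and the whisker the SD (n = 3). Pyy and Cyp2b10 are higher in both groups with drugs, and Tnnt2 and Lgr6 are lowest in EpiCSETF.

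Cyclic AMP and CREB targets were the list with the most members at an unadjusted p under 0.05 in 1 direction. Of its 28 tested members, 8 were higher and 1 lower at that level, against 1.95% and 1.42% of all features, and edgeR called 0 after adjustment over all features. This list and the others were written with earlier results of these data known, so such counts are descriptions and no independent test of a list. DESeq2 called 4 of the 8, which were Nr4a2, Fos, Nr4a1 and Dusp1, and edgeR with only the 6 libraries and the mouse block called Fos. The 8 were Nr4a2, Fos, Nr4a1, Dusp1, Rgs2, Nr4a3, Sik1 and Fosb, and the lower one was Cited2, an inhibitor of CBP and p300 binding. The median log2 difference of the list was 0.15, against -0.01 for all features tested, with 0.23, 0.02 and 0.24 in mice 1, 2 and 3. The list median was 0.029 with smoke extract alone and 0.015 with the drugs alone, both against EpiVeh.

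Nr4a2, a nuclear receptor switched on early after cyclic AMP, was at 6.60, 6.63 and 6.86 CPM in EpiVeh and 14.6, 11.7 and 11.7 CPM in EpiCSETF. The 3 vehicle libraries were nearly level and all treated ones were above them, with a log2 fold change of 0.92 ± 0.16 (SE; edgeR, Benjamini-Hochberg adjusted p = 0.310, and 5.22e-05 with DESeq2). Nr4a2 in EpiTF was at 11.1, 10.0 and 11.3 CPM. Fos, a subunit of the transcription factor AP-1, was at 203, 204 and 171 CPM in EpiVeh and 355, 322 and 272 CPM in EpiCSETF. These groups did not overlap, and the log2 fold change was 0.72 ± 0.12 (SE; edgeR adjusted p = 0.320, 0.000261 with DESeq2 and 0.0295 in edgeR with only the 6 libraries and the block). Over all the alternatives run the adjusted p of both genes reached up to 1.00. Fos in EpiTF reached 242, 223 and 237 CPM, below every EpiCSETF library. Nr4a1 went from 33.1, 42.8 and 26.5 CPM to 71.3, 69.2 and 65.4 CPM, a log2 difference of 1.01 ± 0.23 (SE; DESeq2 adjusted p = 0.0288). Dusp1, a phosphatase that inactivates MAP kinases, was at 245, 223 and 248 CPM and then 367, 304 and 369 CPM, a log2 difference of 0.54 ± 0.13 (SE; DESeq2 adjusted p = 0.0497). Rgs2, which shortens G protein signals, differed by 1.28 ± 0.37 and Sik1, a kinase that restrains CREB coactivators, by 0.21 ± 0.07 on the log2 scale. Nr4a3 was at 1.36 CPM or less in all 6 libraries.

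The 4 promoters are shown because they belong to members of the 8 higher genes that hold TGACGT in their RefSeq window. The 8 include 7 with a window, and Sik1 has none in the table.
Fos, chr12:85473640-85473889, plus strand: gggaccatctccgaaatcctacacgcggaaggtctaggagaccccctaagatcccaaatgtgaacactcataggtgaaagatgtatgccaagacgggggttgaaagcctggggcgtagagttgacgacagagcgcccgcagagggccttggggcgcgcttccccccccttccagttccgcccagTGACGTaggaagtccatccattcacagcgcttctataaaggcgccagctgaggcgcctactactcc
Dusp1, chr17:26508473-26508722, minus strand: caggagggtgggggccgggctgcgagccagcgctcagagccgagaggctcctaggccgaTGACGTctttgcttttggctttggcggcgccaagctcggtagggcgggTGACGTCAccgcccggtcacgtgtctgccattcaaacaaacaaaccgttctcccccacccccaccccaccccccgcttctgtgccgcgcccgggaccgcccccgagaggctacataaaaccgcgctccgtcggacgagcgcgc
Nr4a3, chr4:48045055-48045304, plus strand: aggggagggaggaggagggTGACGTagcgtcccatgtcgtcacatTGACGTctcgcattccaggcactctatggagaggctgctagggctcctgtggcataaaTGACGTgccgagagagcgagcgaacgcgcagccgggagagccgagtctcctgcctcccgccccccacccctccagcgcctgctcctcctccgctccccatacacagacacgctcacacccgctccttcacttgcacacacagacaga
Rgs2, chr1:144004150-144004399, minus strand: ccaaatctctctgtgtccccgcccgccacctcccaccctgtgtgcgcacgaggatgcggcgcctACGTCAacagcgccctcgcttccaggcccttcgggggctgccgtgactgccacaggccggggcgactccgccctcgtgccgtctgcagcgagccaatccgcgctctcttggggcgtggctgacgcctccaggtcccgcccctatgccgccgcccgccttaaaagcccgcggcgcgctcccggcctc

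TGACGT was present in 4 of the 7 windows, against 7.51% of all 32851 windows of the table, and TGACGTCA in 1, that of Dusp1, against 1.79%. The match in Fos begins 66 bases before the start and that in Rgs2 186 bases before it. Dusp1 has the full element 143 bases before its start, in which matches of the shorter motif on both strands overlap, and a further one at 191 bases. Nr4a3 holds matches 231, 205 and 147 bases before its start. The shorter motif was added after the 8-letter one had been searched, and a match is a description of the letters. Parts of the element shorter than TGACGT were not searched. The 7 genes come from a list of CREB targets, so these shares are no independent result of the libraries. List members that were not higher were not counted apart.

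The machinery of cyclic AMP itself showed 0 of 29 tested members at an unadjusted p under 0.05, with a median log2 difference of -0.0016. Pde4a and Pde4d, which encode phosphodiesterases of the family that tanimilast inhibits, ranged over 7.23 to 12.1 and 9.84 to 12.7 CPM in the 6 libraries, with overlapping groups. Pde4b, the third tested, was at 15.7, 16.9 and 28.2 CPM in EpiVeh and also overlapped. An early response list of 27 genes shares 5 with the CREB list, Fos, Fosb, Dusp1, Junb and Atf3. In it 5 were higher and 0 lower at an unadjusted p under 0.05, against 1.95% and 1.42% of all features. The 5 were Fos, Dusp1, Dusp6, Spry4 and Fosb, of which Fos, Dusp1 and Fosb are also counted among the higher CREB genes. A negative log2 difference was present in 14 of the 27, and the median was -0.0092.

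NRF2 targets, the antioxidant enzymes, had 7 of 27 tested members higher and 0 lower at an unadjusted p under 0.05, against 1.95% and 1.42% of all features. Again 0 were called by edgeR or DESeq2, and the median log2 difference was 0.16 (0.13, 0.07 and 0.33 in mice 1, 2 and 3). With smoke extract alone the list median was 0.043 and with the drugs alone 0.0068, both against EpiVeh. Slc7a11, the cystine transporter that feeds glutathione synthesis, was at 29.4, 30.6 and 35.0 CPM in EpiVeh and 40.9, 49.4 and 61.8 CPM in EpiCSETF. Every treated library was above every vehicle library, with a log2 difference of 0.68 ± 0.16 (SE; edgeR, Benjamini-Hochberg adjusted p = 0.784). The subunits of glutamate-cysteine ligase, Gclm (0.26 ± 0.08) and Gclc (0.54 ± 0.22), and the pentose phosphate enzymes G6pdx (0.24 ± 0.09) and Pgd (0.19 ± 0.08) were among the 7 on the log2 scale. The others were Gsta1, a glutathione transferase, and Fth1, the ferritin heavy chain. Gclm and G6pdx have a match of the antioxidant response letters TGACNNNGC in their window, before the start. Pgd has one in the window of its other start, and it begins 3 bases after that start. The 7 genes include 6 with a window, and 3 of their 8 windows hold a match, against 12.39% of all windows. The genes come from a list of NRF2 targets, so this too only describes the letters. Among the higher CREB genes the same letters were in 3 of 7 windows, those of Nr4a2, Dusp1 and Nr4a3. Nqo1 and Hmox1, the most used reporters of this route, had overlapping groups, at 39.4, 39.4 and 44.2 CPM against 45.0, 32.1 and 60.4 CPM for Nqo1, and 123, 159 and 115 CPM against 96.4, 152 and 129 CPM for Hmox1. Gpx2, a glutathione peroxidase of epithelia outside the rule for named genes, was at 143, 163 and 111 CPM in EpiVeh and 208, 213 and 226 CPM in EpiCSETF, and DESeq2 called it (adjusted p = 0.0462) while edgeR did not.

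The aryl hydrocarbon receptor list had 1 of 9 tested members higher and 0 lower at an unadjusted p under 0.05, against 1.95% and 1.42% of all features. Cyp1b1, a target of that receptor, was at 248, 262 and 189 CPM in EpiVeh and 284, 284 and 226 CPM in EpiCSETF, with overlap, and Cyp1a1 had too few counts to be tested. In the xenobiotic list, 4 of 27 tested members were higher and 0 lower at that level, against the same shares. Its median log2 difference was 0.28, with 0.10 and 0.19 in mice 1 and 2 and 0.75 in mouse 3. Cyp2s1, an epithelial cytochrome P450, was among the 4 higher members, with 104, 148 and 79.5 CPM in EpiVeh and 155, 243 and 170 CPM in EpiCSETF.

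**Figure D4:**
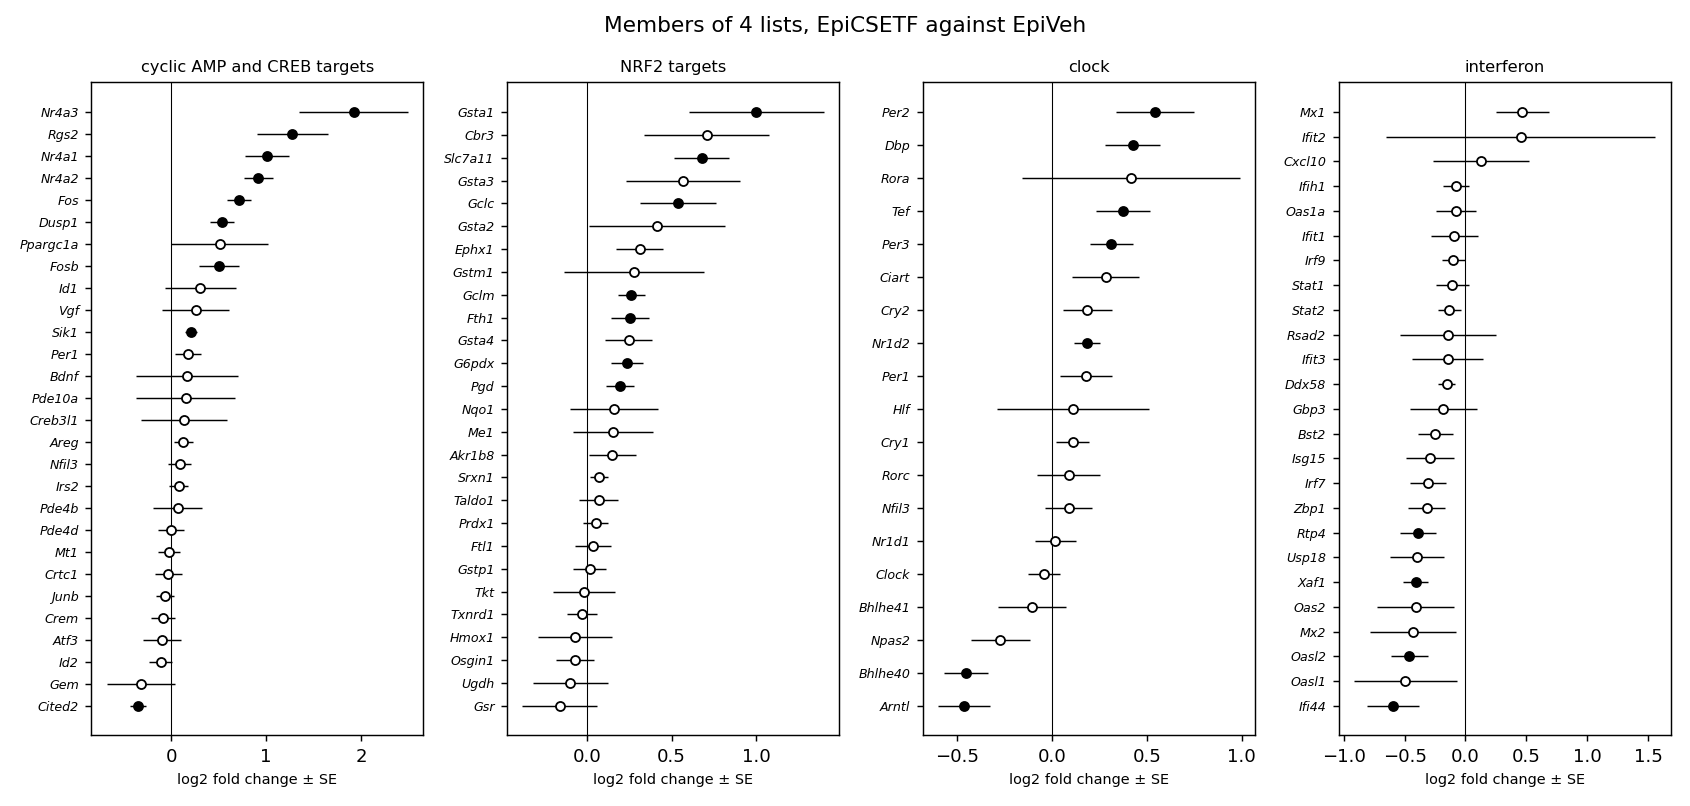
Log2 fold change of EpiCSETF against EpiVeh with its SE (horizontal axes) for the tested members of the CREB, NRF2, clock and interferon lists; filled marks have an unadjusted p under 0.05. The CREB and NRF2 panels hold 8 and 7 filled marks to the right of 0, and the interferon panel 4 to the left.

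Clock genes had log2 differences in both directions. Of 19 tested members, 5 were higher and 2 lower at an unadjusted p under 0.05, against 1.95% and 1.42% of all features. In this list 0 were called, and the median log2 difference was 0.11. The higher ones were Dbp (0.42 ± 0.14), Per3 (0.31 ± 0.11), Per2 (0.54 ± 0.20), Tef (0.37 ± 0.14) and Nr1d2 (0.18 ± 0.07), all output or feedback genes of the clock, as log2 differences with SE. The lower ones were Arntl, which encodes the activator BMAL1, and Bhlhe40, a repressor. Arntl was at 10.7, 11.9 and 12.5 CPM in EpiVeh and 7.41, 9.41 and 8.59 CPM in EpiCSETF, without overlap. Bhlhe40 was at 504, 462 and 580 CPM and then 403, 329 and 398 CPM, also without overlap. Arntl had a log2 difference of -0.50 with the drugs alone and 0.14 with smoke extract alone. The sources used here do not give the hour of harvest.

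Growth factor routes gave scattered members. In the TGF-beta and activin list, 4 of 20 tested members were lower and 2 higher at an unadjusted p under 0.05, against 1.42% and 1.95% of all features. Smad7, an inhibitor and target of TGF-beta signalling, was at 79.1, 79.5 and 102 CPM in EpiVeh and 58.9, 63.9 and 57.9 CPM in EpiCSETF. The log2 difference was -0.53 ± 0.10 (SE; edgeR, Benjamini-Hochberg adjusted p = 0.388, and 0.00325 with DESeq2). Pmepa1, another target that restrains the route, had a log2 difference of -0.36 ± 0.10, while the receptor Tgfbr1 had 0.24 ± 0.08. Bmp2, a ligand of the same superfamily, was at 0.888, 0.968 and 0.861 CPM in EpiVeh and 1.88, 2.62 and 2.27 CPM in EpiCSETF, a low level in both groups without overlap. Vegfa, the endothelial growth factor, was at 848, 824 and 928 CPM and then 719, 642 and 637 CPM, a log2 difference of -0.38 ± 0.09 (SE). Nrarp, a target and inhibitor of NOTCH, was at 22.8, 24.2 and 20.8 CPM in EpiVeh and 28.1, 31.8 and 34.8 CPM in EpiCSETF. Among the remaining genes with the smallest p, Aplp1, an amyloid precursor-like protein, had a log2 difference of 0.89 ± 0.17, and Wfdc1, a secreted protein with a WAP domain, of 1.75 ± 0.37. DESeq2 also called Bmp2 (adjusted p = 0.000267), Vegfa (0.0123), Nrarp (0.0288), Aplp1 (0.00115) and Wfdc1 (0.00357), which edgeR with all libraries did not.

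Most interferon-stimulated genes had negative log2 differences. Of 25 tested members, 22 had a negative log2 difference, against 9434 of all 18038 features. At an unadjusted p under 0.05, 4 were lower and 0 higher, against 1.42% and 1.95% of all features. In 9 members all treated libraries lay below all vehicle libraries, against 3.68% of all features. The median was -0.18, with -0.32, -0.29 and -0.03 in mice 1, 2 and 3. Ifi44 was at 99.1, 84.5 and 98.5 CPM in EpiVeh and 66.5, 58.1 and 62.5 CPM in EpiCSETF. Oasl2 was at 49.2, 64.4 and 50.6 CPM and then 35.2, 42.0 and 42.1 CPM, and Xaf1 at 16.2, 17.1 and 16.2 CPM and then 12.9, 11.2 and 13.1 CPM. All 3 sets of libraries were without overlap, and the smallest edgeR Benjamini-Hochberg adjusted p in the list was that of Xaf1, 0.848. The median of the list was -0.47 with smoke extract alone, -0.02 with the drugs alone and 0.27 in the Epcam-negative fraction. Lcn2, lipocalin 2 of the antimicrobial and inflammation lists, was at 574, 855 and 881 CPM in EpiVeh and 548, 274 and 384 CPM in EpiCSETF, a log2 difference of -0.94 ± 0.27 (SE).

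Airway and alveolar markers varied widely between mice. Fewer cells of a type and less RNA per cell cannot be told apart in these bulk libraries. Scgb1a1, the secretoglobin that marks club cells, was at 22.3, 85.7 and 13.5 CPM in EpiVeh and 128, 124 and 361 CPM in EpiCSETF. No library of the groups overlapped, but the spread within each was wide and the log2 difference of 2.34 ± 0.78 (SE) was not called. Smoke extract alone gave a log2 difference of 2.62 ± 0.79 and the drugs alone -1.09 ± 0.77 for Scgb1a1. Across the club cell list 1 of 18 tested members was higher at an unadjusted p under 0.05, against 1.95% of all features. The median log2 difference of that list was 0.36 (0.43, 0.02 and 1.05 in mice 1, 2 and 3). Goblet cell and mucin genes had 0 of 14 in either direction and a median of -0.05, although the mucin Muc5b stood at 74.4, 114 and 26.9 CPM in EpiVeh and 157, 197 and 106 CPM in EpiCSETF. Muc5b was lower by a log2 difference of -1.04 with smoke extract alone and higher by 1.72 with the drugs alone.

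Alveolar type 2 cells make surfactant, and 2 of 16 tested members of their list were higher at an unadjusted p under 0.05. Over all features 1.95% were higher and 1.42% lower at that level, the shares that stand beside every list of this paragraph. The type 2 list had a median log2 difference of 0.41 (0.12, 0.13 and 1.04 in mice 1, 2 and 3). Sftpb, a surfactant protein, was at 388, 703 and 234 CPM in EpiVeh and 778, 911 and 1014 CPM in EpiCSETF, without overlap. Of the 16 tested alveolar type 1 genes, 3 were higher and 1, Vegfa, lower. Ager, the receptor that marks these thin gas-exchange cells, was at 2.91, 5.76 and 3.72 CPM in EpiVeh and 5.89, 7.81 and 12.2 CPM in EpiCSETF. Basal genes had 1 of 14 higher, Trp63, at 100.5, 93.9 and 80.2 CPM and then 121, 98.5 and 112 CPM. Of the 20 members of an epithelial identity list, 2 were higher at an unadjusted p under 0.05, and its median log2 difference was -0.01.

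Markers of other cells were checked beside these. In the fibroblast matrix list 1 of 20 tested members, Sparc, was lower at an unadjusted p under 0.05, against 1.42% of all features. Sparc was at 188, 178 and 202 CPM in EpiVeh and 100.5, 139 and 140 CPM in EpiCSETF, and the list median was -0.24. The 9 tested fibroblast identity genes had a median of -0.16, which was -0.43, -0.23 and 0.37 in mice 1, 2 and 3. Ptprc and Cdh5, which define leukocytes and endothelium, had too few counts to be tested, as had 10 of 17 leukocyte and 8 of 13 endothelial genes. The part of fibroblast RNA in the differences above was not tested. Cell cycle genes had 0 of 25 at an unadjusted p under 0.05 in either direction, with a median of -0.11. Their log2 differences were negative in 21, against 9434 of all 18038 features. Cholesterol and fatty acid synthesis genes had 24 of 27 positive log2 differences, against 8604 of all 18038 features, with a median of 0.11. Elovl6, a fatty acid elongase, was the 1 higher at an unadjusted p under 0.05, against 1.95% of all features.

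**Figure D5:**
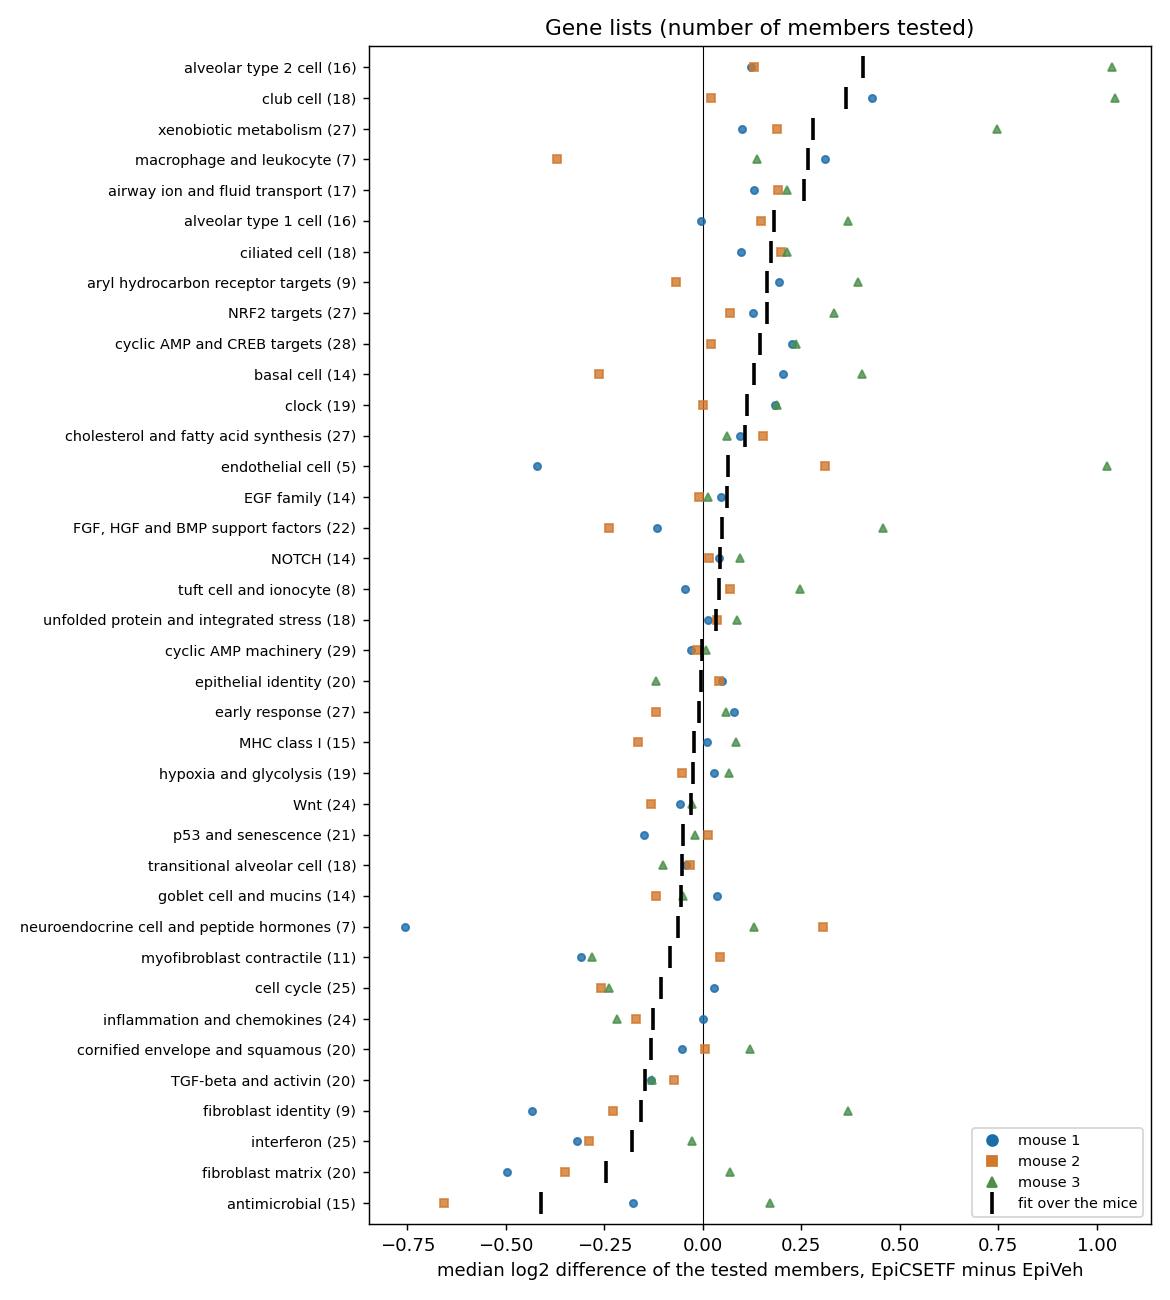
Median log2 difference of EpiCSETF minus EpiVeh over the tested members of each of the 38 gene lists (horizontal axis), with the number of members tested in brackets; coloured marks are single mice and the black bar is the fit over the mice. The medians of the 3 mice differ in sign in 23 of the 38 lists, and in 13 of the 27 lists of at least 15 tested genes, such as cell cycle at 0.03, -0.26 and -0.24.

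The joint treatment was set against the sum of the single treatments on the log2 scale. The interaction of smoke extract and drugs was called for 0 of 18038 features by edgeR (207, or 1.15%, at an unadjusted p under 0.05) and for 1 (0.00554%) by DESeq2. For Pyy the interaction was -0.23 ± 0.36, for Tnnt2 -0.22 ± 0.19, for Lgr6 0.09 ± 0.16 and for Cyp2b10 0.68 ± 0.28 (log2 with SE; edgeR adjusted p = 1.00 for each). Among the 5 genes with the smallest p, Foxp1 had 1.24 ± 0.37 and Lrch4 1.06 ± 0.31. Nol12 had -0.32 ± 0.10, Amot -0.37 ± 0.10 and the pseudogene Rpl35a-ps3 -3.45 ± 1.02. Lrch4 was at 7.94, 10.8 and 11.5 CPM in EpiVeh and 15.7, 14.7 and 19.3 CPM in EpiCSETF, without overlap. Against the shared EpiVeh libraries, smoke extract alone called 0 features (667, or 3.7%, at an unadjusted p under 0.05; 16, or 0.0887%, by DESeq2) and the drugs alone 0 (473, or 2.62%; 9, or 0.0499%, by DESeq2). With the mouse block the drugs alone called 1 feature (0.00554%), Pyy, at an edgeR Benjamini-Hochberg adjusted p of 0.0123.

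The contrast was also compared between the 2 fractions of the same cultures. The difference of the contrast between fractions was called for 0 of 19142 features by edgeR and 0 by DESeq2, with 1327 (6.93%) at an unadjusted p under 0.05. The 5 genes with the smallest p were Rab20, Pawr, Ifih1, Azi2 and Btg3, with log2 differences of -0.75, -0.64, -0.77, -0.67 and -0.60 (edgeR adjusted p = 0.689 for each). In those 5 genes the Epcam-positive contrast was between -0.08 and 0.05 and the Epcam-negative one between 0.56 and 0.70. For Pyy the Epcam-negative contrast was 3.59 ± 0.51 and for Lgr6 -0.85 ± 0.12 (SE), and the differences between fractions were -0.88 ± 0.56 and -0.03 ± 0.17, both short of the threshold. For Fos the Epcam-negative contrast was 1.29 ± 0.18 and for Nr4a2 1.43 ± 0.16.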

How the data were processed

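The values were the deposited read counts per gene for 24 libraries of poly-A RNA, as whole numbers that the authors had not normalised. Trimming used Trimmomatic 0.30 and testing by the authors used DESeq2, per the submitters' processing notes. No aligner, counter or use of strand is given in the sources used here, so overlapping, antisense and near-identical genes may hold each other's reads. The reference carried a human assembly name beside the word mouse, per the labels' protocols, so the build is not settled, and coordinates come only from the RefSeq promoter table of GRCm38.p6.

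The main test was run in edgeR 4.0.16 under R 4.3.3 (TMM scaling, filterByExpr by group with a minimum count of 10, robust quasi-likelihood F tests) over the 12 Epcam-positive libraries as 4 group means without a mouse term. Benjamini-Hochberg adjustment covered all features tested, and an adjusted p under 0.05 is called. The difference between fractions used all 24 libraries as 8 group means. CPM values are counts scaled by library size and TMM factors, and distances and list medians per mouse use log2 CPM with a prior count of 2. The test was run on simulated data with known changes. Those counts were drawn without a mouse effect, so that check does not cover likeness between libraries of 1 mouse. Features with no symbol, named NewGene, stayed in the tests and took 0.629 to 1.04% of the counts of the 6 libraries.

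The table held 49280 features, and 783 of 784 entries of 38 gene lists were matched to it, 5 of them by an older symbol. Named genes are the called genes with the largest differences, or the 10 with the smallest p where fewer than 5 were called, with at least 5 CPM in the higher group and 1 direction in all mouse pairs. Predicted genes were left out. From each list the 2 members with the lowest p were added, as were a fixed set and the 5 genes with the smallest p for the interaction and for the difference between fractions. Not every list member chosen in this way is described above. Among those left out at an unadjusted p under 0.05 are Dnah5 and Calca, which were lower, and Nkx2-1 and Esrp2, which were higher. Of the fixed set, 1 gene is not reported here. A gene named otherwise is a list member at an unadjusted p under 0.05 or was chosen after its values were seen. The members, lists and tests were chosen with earlier results of these data known.

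The mouse number pairs the libraries because the labels give the same animal for them. Deviations from the group means correlated at 0.137 to 0.471 between EpiCSETF and EpiVeh of the same mouse, and at -0.384 to 0.252 between those of different mice. Over all pairs of the 4 groups the ranges were 0.0106 to 0.504 and -0.438 to 0.252, so they overlap. Alternatives were the mouse as a block, DESeq2 1.42.0 and its size factors, no filter on low counts, NewGene features left out, only the 6 libraries, and each library or mouse left out. The tests cannot show a bias that library preparation gave to all libraries.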

Additional observations from a re-analysis of the deposited data

How the results depend on the processing

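The count of 3 called features in EpiCSETF against EpiVeh was the same with DESeq2's size factors in edgeR, without the filter on low counts and without NewGene features. It was 6 with the mouse as a replicate block, 34 with DESeq2, 0 with only the 6 libraries in edgeR (483 at an unadjusted p under 0.05) and 4 with only the 6 libraries and the block. Leaving out 1 library or 1 mouse gave 0 to 2, where 1 of those calls without EpiCSETF replicate 3, and the call without mouse 3, was Phc3. The counts of 0 for smoke extract alone became 1 without the filter and 16 with DESeq2, and those for drugs alone 1 with the replicate block, 1 without the filter and 9 with DESeq2. The interaction went from 0 to 1 with DESeq2 and to 0 to 1 over the libraries left out. The difference between fractions stayed at 0 in the alternatives with all libraries and was 0 to 1 over those left out. The cause of these changes was not tested. The block over all epithelial libraries added calls of Cyp2b10, Tspan4 and C130026I21Rik in the comparison of EpiCSETF with EpiVeh, and of Pyy with drugs alone. The block with only the 6 libraries called none of those 3 and not Tnnt2, and its 4 calls were Pyy, Lgr6, Fos and Foxa2. None of the 61 log2 differences followed for single genes changed sign in 976 refits, and 29 of the refits lost a call while 22 gained one. Many of these genes were chosen by their values in the same libraries, such as a small p or 1 direction in all mouse pairs. A kept sign is therefore no independent check of them. List medians moved by more than their spread over mice in 70 of 608 refits. At 1 CPM a library held about 40.9 counts or more, so differences in genes below that level rest on few counts.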

Other observations

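Some features were all or nothing between libraries of a group, and these were chosen after their values were seen. Phc3, a Polycomb group gene, was at 60.2, 64.2 and 62.0 CPM in EpiVeh and at 6.37, 9.32 and 63.9 CPM in EpiCSETF of mice 1, 2 and 3. In EpiCSE and EpiTF it was at 55.8 to 68.4 CPM and in FibCSETF at 66.2 to 80.5 CPM, and the EpiCSETF libraries of mice 1 and 2 were the low ones among these. The predicted gene Gm20716 was listed at 0 in all EpiVeh libraries, at 0, 52.8 and 0 CPM in EpiCSETF, at 45.2, 43.0 and 61.0 CPM in EpiCSE, and at 40.3, 0 and 0 CPM in EpiTF. Daf2 was listed at 0 in all EpiVeh and EpiCSE libraries and held 30, 22 and 41 counts in EpiCSETF. Its neighbour in sequence, Cd55, held 4608 to 5780 counts in the same 6 libraries, and reads shared between such copies make the Daf2 values uncertain. None of these features was called in the comparison of EpiCSETF with EpiVeh by edgeR with all libraries.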
